A study of Mus musculus with 12 samples.

Results

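The receptors for tumour necrosis factor (TNF) and the proteins that first assemble on them were followed in cultured endothelial cells from newborn mice. The list held 10 genes: the receptors Tnfrsf1a and Tnfrsf1b, the adaptors Tradd, Traf1, Traf2 and Traf3, the kinase Ripk1, the ubiquitin ligases Birc2 and Birc3, and the shedding protease Adam17. A gene was taken through the probe sets that the platform annotation gives its symbol alone, and of these the one with the highest mean log2(signal + 16) over the 12 arrays stood for the gene. By this rule 8 of the 10 genes had a probe set, out of 18193 named genes, and all 8 were among the 10269 genes that passed the filter on dim probe sets and were tested. Traf3 and Ripk1 had no probe set under this rule and were not analysed here.

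All cells came from wild-type newborn mice and were grown in the same serum-containing medium. In the tmTNF group (4 arrays) the cells stably carried a murine TNF mutant that stays in the membrane because it cannot be cleaved, which the labels call chronic activation. In the soluble TNF group (4 arrays) the cells received soluble TNF at 20 ng/ml for 4 h, which the labels call transient activation. The control group (4 arrays) was mock-transfected, and since the labels leave unclear whether the soluble TNF cells were, transfection may differ between soluble TNF and control. The labels name neither the promoter of the transgene nor the number of clones, and they do not state whether the 4 samples of a group were separate cultures or animals. All p-values thus describe the scatter among these 12 arrays, which need not be the scatter between animals. That scatter includes wide differences in cell type markers between arrays of the same group, given below.

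TNF binds the receptors Tnfrsf1a and Tnfrsf1b. Soluble TNF acts mainly through Tnfrsf1a, whose death domain recruits Tradd and, through it, Traf2 with Birc2 and Birc3, which attach ubiquitin to Ripk1 and so allow the kinases upstream of NF-kappaB to assemble. Membrane-bound TNF is the stronger ligand of Tnfrsf1b, which has no death domain and binds the TRAF proteins directly. Adam17 cuts TNF and both receptors from the cell surface, and in endothelium TNF signalling is known for inducing adhesion molecules and chemokines.

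Signals are the authors' deposited intensities, 1 per probe set and array, rescaled here so that each array had the same trimmed mean, and a signal of 100 was taken as the floor of measurement. Between 17652 and 19174 probe sets per array reached it. Of 12 endothelial markers, 8 reached the floor on all 12 arrays, but their summed signal was 25085 and 26426 on tmTNF replicates 2 and 4 and 13513 on control replicate 3, against 118728 and 119492 on the other tmTNF arrays, 29099 to 68260 on the soluble TNF arrays and 71316 to 114414 on the other control arrays. The same 3 arrays had the highest sums of 5 mesothelial markers, at 14061, 6900 and 10590, carried by Krt19 and Msln, since the other 3 genes never reached the floor. Summed signals of 7 fibroblast markers were 4126 and 8422 on tmTNF replicates 2 and 4 (mostly Dcn), 8147 and 7663 on soluble TNF replicates 1 and 4 and 10009 and 3192 on control replicates 3 and 4 (mostly Col1a2 and Col3a1), and 156 to 622 on the other 6 arrays. The sum of 6 smooth muscle and pericyte markers was 243 to 1726 with tmTNF, 892 to 1783 with soluble TNF and 199 to 1256 in controls, with Acta2 at 101.2 to 238.3, 736.2 to 1668 and 98.3 to 1043 in these groups. Summed Y-linked transcripts were 968 to 2508 on tmTNF arrays, 22 to 57 on soluble TNF arrays and 18 to 87 on control arrays, so the sex of the source cells, as read from these transcripts, and tmTNF cannot be told apart. The 18S ribosomal RNA 5′ control probe set gave signals of 183 to 509 on tmTNF arrays, 274 to 493 on soluble TNF arrays and 121 to 146 on control arrays, the middle set 322 to 978, 441 to 653 and 181 to 384, and the 3′ set 456 to 685, 402 to 719 and 262 to 466. Control arrays thus lay below both exposures for the 5′ set, below soluble TNF alone for the middle set, and overlapped both for the 3′ set. These are bulk cultures, in which fewer cells of a type and less RNA per cell cannot be told apart. The Tnf probe set stayed under the floor on every array, at 10.0 to 77.2 with tmTNF, 6.2 to 14.3 with soluble TNF and 7.3 to 25.7 in controls, and since the labels do not say whether it covers the transgene it checks no label.

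The 8 measured genes were compared between the groups in a limma model of all 3 groups, with p-values adjusted over the 10269 genes, and every difference between the exposures is tmTNF minus soluble TNF. Between tmTNF and control, 0 of the 8 passed an adjusted p of 0.05, against 0.195% of all genes tested, and 3 had an unadjusted p under 0.05, against 7.56% of all genes. Between soluble TNF and control, 0 of the 8 passed in limma, against 0.039% of all genes, and 3 had an unadjusted p under 0.05, against 12.7%. Between tmTNF and soluble TNF, 0 of the 8 passed in limma, against 1.22%, and 2 had an unadjusted p under 0.05, against 19.9%. The exact permutation test over arrays, whose smallest possible two-sided p with 4 arrays against 4 is 0.0286, also passed 0 of the 8 after adjustment in each comparison.

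Some genes nevertheless had groups whose arrays did not overlap. Birc3 was higher on all 4 tmTNF arrays than on any control array, as were 2.19% of all genes, and no gene of the list was lower on all 4, as were 0.984% of all genes. For soluble TNF against control Birc3, Traf1 and Traf2 were higher on all 4 arrays, as were 3.67% of all genes, and Tnfrsf1a was lower on all 4, as were 4.44%. Traf1 passed the filter on dim probe sets only through exposed arrays, with 4 soluble TNF, 2 tmTNF and 0 control arrays at the floor. Its separation from control was favoured by that filter, as was its place among the 3 genes with an unadjusted p under 0.05 in each comparison with control. For tmTNF against soluble TNF, Tnfrsf1b was higher on all 4 arrays, as were 10.3% of all genes, and none was lower on all 4, as were 5.86%. The median log2 fold change of the 8 genes was 0.434 for tmTNF minus control, 0.154 for soluble TNF minus control and 0.073 between tmTNF and soluble TNF, beside medians over all genes tested of 0.026, -0.045 and 0.079.

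**Figure D1:**
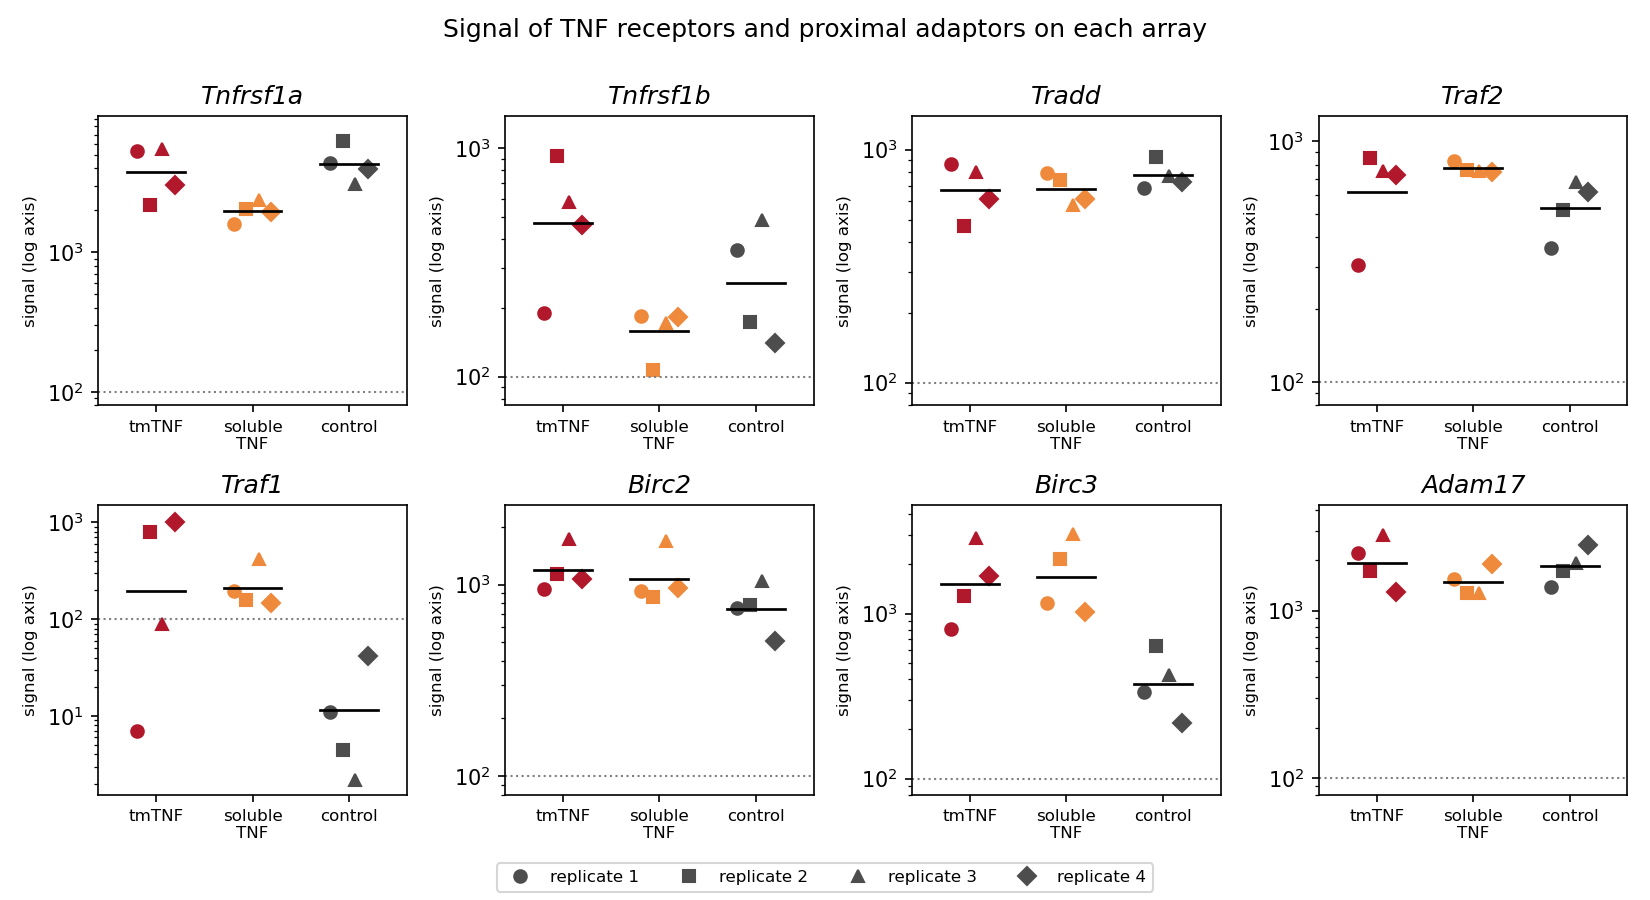
Signal of the 8 measured genes on each array (log axis, rescaled intensity), with 4 arrays each for tmTNF, soluble TNF and control; marker shapes give the replicate, black bars the mean of log2(signal + 16) turned back to a signal, and the dotted line the floor of 100. Birc3 separates both exposures from control, Tnfrsf1a is lower on every soluble TNF array than on every control array, and Traf1 lies under the floor on all 4 control arrays.

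Tnfrsf1a, the receptor with a death domain, had the lowest level with soluble TNF. Its signals (probe set 1417291_at) were 5343, 2183, 5502 and 3058 on tmTNF arrays 1 to 4, then 1595, 2052, 2372 and 1955 on soluble TNF arrays and 4403, 6340, 3107 and 3971 on control arrays. All 4 soluble TNF arrays lay below all 4 control arrays, while the tmTNF arrays spread over the ranges of both. Group means were 4022 ± 1658 with tmTNF, 1993 ± 319.7 with soluble TNF and 4455 ± 1367 in controls (SD, n = 4 each), so control stood highest and tmTNF next, and these neighbours did not differ beyond their spread.

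The log2 fold change of Tnfrsf1a for soluble TNF minus control was -1.12 ± 0.31 (SE, 95% interval -1.8 to -0.44), a ratio of 0.46, with a limma adjusted p of 0.244. In the exact permutation test its p was 0.0286, or 0.352 after adjustment over all genes. Between tmTNF and soluble TNF the log2 fold change was 0.92 ± 0.31 (interval 0.24 to 1.59, limma adjusted p = 0.144), with 1 tmTNF array, replicate 2, inside the soluble TNF range. For tmTNF minus control it was -0.20 ± 0.31 (interval -0.88 to 0.48, limma adjusted p = 0.944). Within the tmTNF and control groups the lowest Tnfrsf1a signals were on tmTNF replicates 2 and 4 and control replicate 3. These are the arrays with the low endothelial and high mesothelial marker sums, and the part of what those sums reflect in the result was not tested. Leaving out these 3 arrays keeps tmTNF replicates 1 and 3, at 5343 and 5502, and drops no soluble TNF array. The endothelial sums are then 119492 and 118728 with tmTNF against 29099 to 68260 with soluble TNF, so the 2 groups no longer overlap in that sum. In this fit Tnfrsf1a differed between tmTNF and soluble TNF by 1.45, with a limma adjusted p of 0.0335. The part of the endothelial sum in this difference was not tested. With limma's array weights it differed by 0.97, with an adjusted p of 0.0376. Those weights also took the count of all genes past the threshold in this comparison to 1176, against 125. Without the 3 arrays the difference between soluble TNF and control was -1.28. The arrays with high fibroblast sums had the lowest Tnfrsf1a signals of each group. With tmTNF, replicates 2 and 4 were at 2183 and 3058, against 5343 and 5502 on replicates 1 and 3. With soluble TNF, replicates 1 and 4 were at 1595 and 1955, against 2052 and 2372 on replicates 2 and 3. In controls, replicates 3 and 4 were at 3107 and 3971, against 4403 and 6340 on replicates 1 and 2. The part of the fibroblast markers in the result was not tested.

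Tnfrsf1b, the receptor without a death domain, had its highest mean with tmTNF and, like Tnfrsf1a, its lowest with soluble TNF. Its signals (1418099_at) were 189.2, 921.2, 579.9 and 460.9 on tmTNF arrays, then 184.8, 107.0, 172.0 and 181.8 on soluble TNF arrays and 358.1, 173.7, 485.0 and 140.0 on control arrays. Every tmTNF array lay above every soluble TNF array, though tmTNF replicate 1 only just did so, and the control arrays overlapped both groups. The means were 537.8 ± 303.4 with tmTNF, 161.4 ± 36.7 with soluble TNF and 289.2 ± 162.0 in controls (SD, n = 4 each), and control as the middle group did not differ from either neighbour beyond the spread.

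For tmTNF minus soluble TNF the log2 fold change of Tnfrsf1b was 1.47 ± 0.48 (95% interval 0.44 to 2.51), a ratio of 2.78, with a limma adjusted p of 0.133. The exact permutation p was 0.0286, or 0.177 after adjustment. Against control, tmTNF differed by 0.83 ± 0.48 (interval -0.21 to 1.86, limma adjusted p = 0.773) and soluble TNF by -0.65 ± 0.48 (interval -1.68 to 0.39, limma adjusted p = 0.593). The highest tmTNF signal and the highest control signal were on tmTNF replicate 2 and control replicate 3, whose mesothelial sums were the highest. Other arrays did not follow those sums. Replicate 4 of tmTNF, with a sum of 6900, was at 460.9, below the 579.9 of replicate 3, with a sum of 171. Soluble TNF replicates 1 and 4, with sums of 4199 and 4390, were at 184.8 and 181.8, near the 172.0 of replicate 3, with 405. The part of the mesothelial markers in the result was not tested. Without the 3 arrays low in endothelial markers the difference between tmTNF and soluble TNF was 1.01, and with array weights it was 1.45 with a limma adjusted p of 0.0339. A second Tnfrsf1b probe set (1448951_at), which reached the floor on 5 arrays, differed by 0.31, -0.6 and 0.9 in the comparisons tmTNF minus control, soluble TNF minus control and tmTNF minus soluble TNF, with the same signs and with overlapping arrays.

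**Figure D2:**
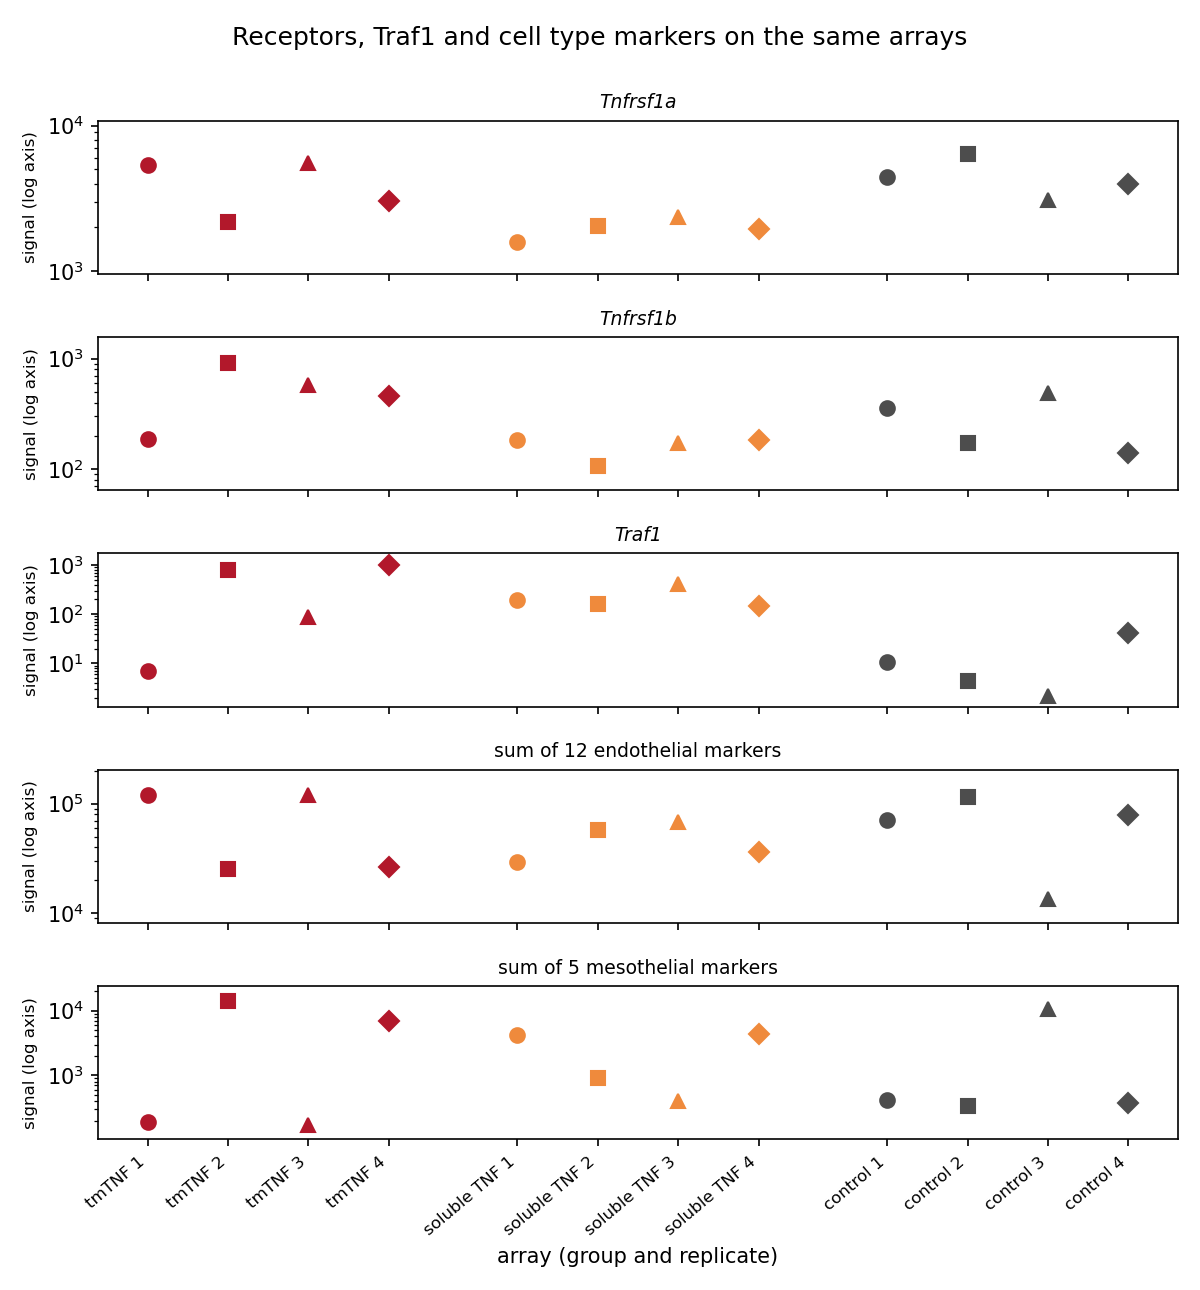
Signal of Tnfrsf1a, Tnfrsf1b and Traf1 and the summed signal of the endothelial and mesothelial markers on each of the 12 arrays (log axes, rescaled intensity), tmTNF, soluble TNF and control from left to right. The arrays tmTNF 2, tmTNF 4 and control 3 are lowest in the endothelial sum. For Tnfrsf1b, tmTNF 2 and control 3 are the highest of their groups, while tmTNF 4 lies below tmTNF 3.

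Adam17, the protease that sheds TNF and its receptors, had overlapping groups in each comparison. Its signals (1421858_at) were 2207, 1721, 2832 and 1285 with tmTNF, then 1544, 1268, 1273 and 1901 with soluble TNF and 1389, 1726, 1921 and 2475 in controls. The highest of the 12 arrays was tmTNF replicate 3 and the lowest soluble TNF replicate 2, with means of 2011 ± 664.5 with tmTNF, 1496 ± 298.8 with soluble TNF and 1878 ± 454.9 in controls (SD, n = 4 each). The log2 fold changes were 0.07 ± 0.27 for tmTNF minus control (95% interval -0.51 to 0.65), -0.31 ± 0.27 for soluble TNF minus control (-0.9 to 0.27) and 0.38 ± 0.27 for tmTNF minus soluble TNF (-0.2 to 0.97), with limma adjusted p-values of 0.975, 0.646 and 0.448. Both other Adam17 probe sets, which reached the floor on all 12 arrays, had the same signs in each comparison.

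Tradd, the death-domain adaptor that Tnfrsf1a recruits first, had overlapping groups for the probe set used. Its signals (1452622_a_at) were 870.4, 468.8, 801.0 and 615.2 with tmTNF, then 794.3, 742.8, 577.1 and 613.6 with soluble TNF and 687.3, 930.1, 771.6 and 726.8 in controls. The lowest of the 12 arrays was tmTNF replicate 2 and the highest control replicate 2, with means of 688.9 ± 182.0 with tmTNF, 681.9 ± 103.2 with soluble TNF and 778.9 ± 106.5 in controls (SD, n = 4 each). The 95% intervals of the log2 difference ran from -0.69 to 0.29 for tmTNF minus control, from -0.68 to 0.3 for soluble TNF minus control and from -0.5 to 0.48 between tmTNF and soluble TNF. A second Tradd probe set (1429117_at) had the same signs, and another (1439910_a_at), which reached the floor on 3 arrays, had the opposite sign wherever tmTNF was compared and was 1.03 higher (log2) with tmTNF than with soluble TNF, on all 4 arrays.

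Traf2, the adaptor that brings Birc2 and Birc3 to the receptor complex, was higher on every soluble TNF array than on any control array. The signals of Traf2 (1451233_at) were 307.1, 848.9, 751.4 and 721.2 with tmTNF, then 828.3, 757.9, 752.6 and 748.4 with soluble TNF and 359.5, 519.1, 676.4 and 614.9 in controls. The soluble TNF arrays lay in a narrow band above all control arrays, and of the tmTNF arrays 3 lay above all control arrays and replicate 1 below them. The means were 657.2 ± 239.6 with tmTNF, 771.8 ± 37.9 with soluble TNF and 542.5 ± 138.1 in controls (SD, n = 4 each), and tmTNF, in the middle, did not differ from either neighbour beyond its spread. The log2 fold change was 0.53 ± 0.31 for soluble TNF minus control (95% interval -0.13 to 1.2, limma adjusted p = 0.493), with an exact permutation p of 0.0286, or 0.352 after adjustment. For tmTNF minus control it was 0.21 ± 0.31 (interval -0.45 to 0.88, limma adjusted p = 0.94), and 0.53 without tmTNF replicate 1. For tmTNF minus soluble TNF it was -0.32 ± 0.31 (interval -0.99 to 0.35), and 0.0 without that array.

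Traf1, a TRAF protein without the ubiquitin ligase domain of Traf2, to which it binds, was under the floor on all control arrays and at or above it on all soluble TNF arrays. Its promoter window (RefSeq, GRCm38.p6, chr2:34961723-34962022, minus strand) is shown for that reason. The window holds no match to the NF-kappaB consensus, the DNA motif that NF-kappaB dimers bind, on either strand.

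Traf1: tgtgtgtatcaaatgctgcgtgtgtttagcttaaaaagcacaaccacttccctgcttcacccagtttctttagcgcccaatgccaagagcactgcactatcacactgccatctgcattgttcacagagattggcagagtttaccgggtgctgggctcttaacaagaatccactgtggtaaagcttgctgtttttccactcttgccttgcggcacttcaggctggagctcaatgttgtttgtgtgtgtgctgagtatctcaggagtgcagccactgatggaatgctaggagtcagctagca

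The signals of Traf1 (1423602_at) were 7.0, 801.7, 88.7 and 1004 with tmTNF, then 194.5, 158.6, 414.7 and 145.3 with soluble TNF and 10.9, 4.4, 2.2 and 41.7 in controls. All 4 soluble TNF arrays reached the floor of 100 and lay above all 4 control arrays, which were all under it. With tmTNF, replicates 2 and 4 were the highest of the 12 arrays, replicate 3 lay just under the floor and replicate 1 within the control range. The means were 475.3 ± 501.6 with tmTNF, 228.3 ± 126.0 with soluble TNF and 14.8 ± 18.3 in controls (SD, n = 4 each), and tmTNF and soluble TNF did not differ beyond their spread.

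With 2 of 4 tmTNF arrays at or above the floor, the mean log2 level of Traf1 with tmTNF was 1.82-fold above the floor. That ratio was 3.82 without replicate 1, 1.16 without replicate 2 and 1.08 without replicate 4. It takes the tmTNF arrays under the floor at their own signals, so it is no strict lower bound on the difference from control. With soluble TNF, where all 4 arrays reached the floor, the mean log2 level of Traf1 was 1.94-fold above the floor, a bound on the difference from controls in these arrays. That bound was 1.56 without soluble TNF replicate 3, the highest of the group, and 2.16 without replicate 4. The fitted log2 fold change for tmTNF minus control was 2.94 ± 1.01 (95% interval 0.74 to 5.14, limma adjusted p = 0.469), with an exact permutation p of 0.0857. It became 4.00 with a pseudocount of 1 and 2.03 with 64. Without tmTNF replicate 1 it was 4.01 with a limma adjusted p of 0.0467, the one setting for this comparison that put a gene of the list past the threshold, and without the 3 arrays low in endothelial markers it was 0.63. Those 3 arrays include tmTNF replicates 2 and 4, which carried both high Traf1 signals, and both tmTNF arrays that remain lay under the floor. The part of the mesothelial or fibroblast markers on those arrays in the result was not tested. For soluble TNF minus control the fitted value was 3.03 ± 1.01 (interval 0.83 to 5.23, limma adjusted p = 0.286), with an exact permutation p of 0.0286, or 0.352 after adjustment. It became 4.43 with a pseudocount of 1 and 1.83 with 64. The other Traf1 probe set never reached the floor.

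Birc3, a ubiquitin ligase of the receptor complex and a known NF-kappaB target, was the one gene of the list whose arrays separated from control in both exposures. Its promoter window (RefSeq, GRCm38.p6, chr9:7873121-7873420, minus strand) is shown for that reason and likewise holds no match.

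Birc3: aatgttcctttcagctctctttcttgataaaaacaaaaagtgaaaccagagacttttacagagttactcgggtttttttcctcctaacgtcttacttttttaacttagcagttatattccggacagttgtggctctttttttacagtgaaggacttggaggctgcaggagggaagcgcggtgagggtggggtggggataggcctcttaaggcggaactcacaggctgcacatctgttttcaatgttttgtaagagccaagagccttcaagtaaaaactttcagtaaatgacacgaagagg

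The signals of Birc3 (1421392_a_at) were 810.9, 1280, 2872 and 1688 with tmTNF, then 1160, 2142, 3030 and 1020 with soluble TNF and 333.4, 632.9, 422.3 and 218.2 in controls. All 8 exposed arrays lay above all 4 control arrays, and the exposures overlapped each other. The means were 1663 ± 882.3 with tmTNF, 1838 ± 938.4 with soluble TNF and 401.7 ± 175.3 in controls (SD, n = 4 each), so soluble TNF stood highest and did not differ from tmTNF beyond the spread.

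The log2 fold change of Birc3 for tmTNF minus control was 1.96 ± 0.45 (95% interval 0.97 to 2.94), a ratio of 3.88, with a limma adjusted p of 0.144 that ran from 0.0637 to 0.666 over the alternatives. For soluble TNF minus control it was 2.11 ± 0.45 (interval 1.12 to 3.09), a ratio of 4.31, with a limma adjusted p of 0.174 that ran from 0.109 to 0.459. Each had an exact permutation p of 0.0286, or 0.9 after adjustment for tmTNF and 0.352 for soluble TNF. Both differences were about as large without the 3 arrays low in endothelial markers, at 2.04 for tmTNF minus control and 2.16 for soluble TNF minus control. For tmTNF minus soluble TNF the difference was -0.15 ± 0.45 (interval -1.14 to 0.84). The other Birc3 probe set never reached the floor.

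Birc2, the paralogue of Birc3 with the same ligase role, is its neighbour on chromosome 9, and whether either probe set also detects the transcript of the other was not tested. Its signals (1418854_at) were 954.0, 1140, 1733 and 1068 with tmTNF, then 923.2, 860.3, 1692 and 958.0 with soluble TNF and 759.0, 784.1, 1048 and 505.6 in controls. Control replicate 3 lay inside the ranges of both exposures, and the other 3 control arrays lay below all 8 exposed arrays. The means were 1224 ± 348.3 with tmTNF, 1108 ± 391.0 with soluble TNF and 774.2 ± 221.8 in controls (SD, n = 4 each), and neighbours in this order did not differ beyond their spread. The log2 fold change was 0.66 ± 0.29 for tmTNF minus control (95% interval 0.02 to 1.29, limma adjusted p = 0.637) and 0.50 ± 0.29 for soluble TNF minus control (interval -0.13 to 1.13, limma adjusted p = 0.498). Between tmTNF and soluble TNF it was 0.16 ± 0.29 (interval -0.47 to 0.79).

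**Figure D3:**
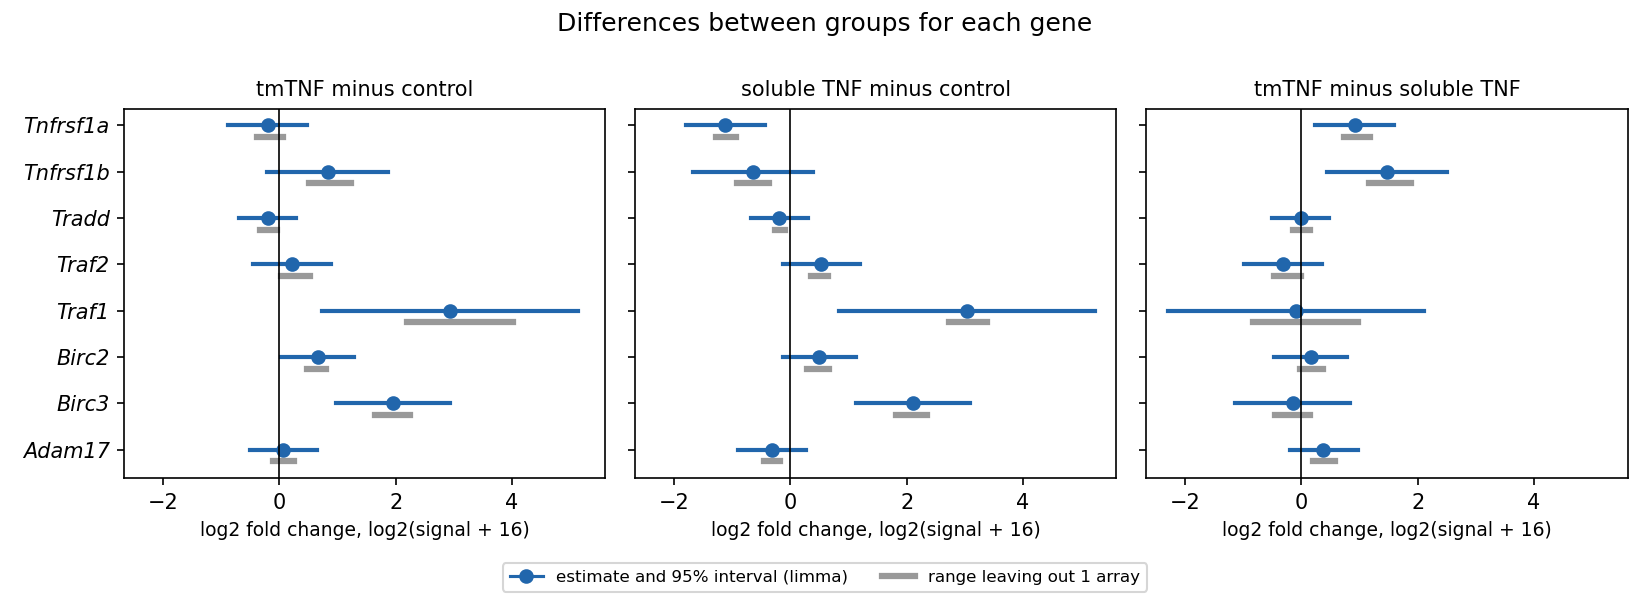
Log2 fold change of each measured gene in the 3 comparisons (x axis, log2(signal + 16) scale), with its 95% interval from limma in blue and the range over fits that leave out 1 array in grey. The intervals of Birc3 and Traf1 lie above 0 for both exposures minus control, and that of Birc2 lies just above 0 for tmTNF minus control. The interval of Tnfrsf1a lies below 0 for soluble TNF minus control, and those of Tnfrsf1a and Tnfrsf1b lie above 0 for tmTNF minus soluble TNF. No adjusted p passed 0.05.

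Over the promoter windows, 7 of the 8 measured genes had 8 windows in the RefSeq table, and none was listed for Tradd. The kappaB consensus, searched on both strands, occurred in 0 of these 8 windows, against 8.46% of all 32851 windows of the same length. A missing match says only that the letters are not in these 300 bases.

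The next proteins of the pathway were followed through 5 lists with 32 genes, of which 31 had a probe set under the same rule and were tested. Among these 31 genes, 0 passed a limma adjusted p of 0.05 in either direction in any of the 3 comparisons. An unadjusted p under 0.05 was reached by 1 for tmTNF minus control, 2 for soluble TNF minus control and 5 between tmTNF and soluble TNF, beside 7.56%, 12.7% and 19.9% of all genes, so these counts are not above the background. The median log2 fold changes of the 31 genes were 0.0, 0.06 and 0.02 in these comparisons.

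Tnfaip3, a deubiquitinase that ends TNF signalling and a known NF-kappaB target, had the largest differences of the 5 lists. Its signals were 195.2, 848.4, 971.8 and 1281 with tmTNF, then 1429, 2458, 3812 and 2136 with soluble TNF and 448.9, 308.2, 255.5 and 174.2 in controls. Every soluble TNF array lay above every control array, as for 3.67% of all genes, and above every tmTNF array, as for 5.86%. Replicate 1 of tmTNF lay within the control range. The log2 fold change was 2.97 ± 0.52 for soluble TNF minus control (limma adjusted p = 0.101), 1.23 ± 0.52 for tmTNF minus control (limma adjusted p = 0.623) and -1.74 ± 0.52 for tmTNF minus soluble TNF (limma adjusted p = 0.11). The exposures share the control arrays, and against them Birc3 differed by 1.96 with tmTNF and 2.11 with soluble TNF. Of the RefSeq promoter windows of Tnfaip3, one (GRCm38.p6, chr10:19015361-19015660, minus strand) is shown beside those above because it does hold the same consensus, in capitals, at bases 126 to 135 (which match on both strands) and at bases 239 to 248 (on the opposite strand), while the other window holds none.

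Tnfaip3: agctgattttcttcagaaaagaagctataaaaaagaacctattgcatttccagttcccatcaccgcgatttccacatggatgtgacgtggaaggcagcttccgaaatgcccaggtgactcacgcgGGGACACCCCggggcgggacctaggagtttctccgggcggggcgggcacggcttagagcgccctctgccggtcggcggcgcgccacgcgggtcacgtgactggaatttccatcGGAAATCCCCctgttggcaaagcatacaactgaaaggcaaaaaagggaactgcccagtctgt

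Of the list of linear ubiquitin ligase subunits and deubiquitinases, to which Tnfaip3 belongs, 0 of 7 passed. In that list Rbck1 was lower on all 4 tmTNF arrays than on any control array, as were 0.984% of all genes. Its log2 fold change for tmTNF minus control was -0.32 ± 0.2 (limma adjusted p = 0.798). In the list of other TRAF proteins and partners, 0 of 7 passed, and the largest difference was in Map3k5, a stress kinase upstream of JNK, at 0.54 for tmTNF minus control, -1.09 for soluble TNF minus control and 1.63 between tmTNF and soluble TNF (limma adjusted p = 0.234 for the last). In the list of TAK1 and IKK kinase complexes, 0 of 6 measured genes passed, and Chuk had no probe set under the rule. Ikbkg, the regulatory subunit of the IKK complex, had signals of 990.4, 2284, 1232 and 2647 with tmTNF, then 458.0, 816.2, 700.3 and 511.5 with soluble TNF and 3122, 475.1, 1599 and 690.3 in controls. Every tmTNF array lay above every soluble TNF array, as for 10.3% of all genes, with a log2 difference of 1.42 ± 0.52 (limma adjusted p = 0.17). The controls spanned both groups.

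In the death branch 0 of 6 genes passed, and Casp8, the initiator caspase, differed by 0.45 for soluble TNF minus control (limma adjusted p = 0.383). Casp8 was also lower on all 4 tmTNF arrays than on any soluble TNF array, as were 5.86% of all genes, with a log2 difference of -0.34 ± 0.2 (limma adjusted p = 0.37). Ripk3, the kinase of necroptosis, varied widely between arrays, at 8.1, 1912, 1476 and 3025 with tmTNF, then 27.1, 2641, 2778 and 34.0 with soluble TNF and 12763, 1060, 16.9 and 15.5 in controls. Its 3 groups each held arrays under the floor and arrays above 1000, so that the interval for tmTNF minus control ran from -3.87 to 5.82. Control replicate 1, the highest in Ripk3, also had the highest summed signal of 6 leukocyte markers, at 18560, against 380 to 7016 on tmTNF arrays, 376 to 446 on soluble TNF arrays and 506 to 2488 on the other control arrays. That sum was carried by Cd68, at 18210, while Ptprc, Itgam, Adgre1 and Cd3e stayed under the floor on every array. Other arrays did not pair the values in this way. The tmTNF array with the sum of 7016, replicate 1, had the lowest Ripk3 signal, 8.1. Soluble TNF replicates 2 and 3 had Ripk3 at 2641 and 2778 with leukocyte sums of 446 and 389. The part of these markers in the result was not tested. Among the genes of shedding and its control 0 of 5 passed, with the largest differences at -0.33 in Frmd8 for tmTNF minus control, 0.43 in Rhbdf2 for soluble TNF minus control and -0.63 in Rhbdf1 for tmTNF minus soluble TNF (limma adjusted p = 0.177 for the last). Rhbdf1 and Rhbdf2 carry Adam17 through the secretory pathway, and Frmd8 stabilises that complex.

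**Figure D4:**
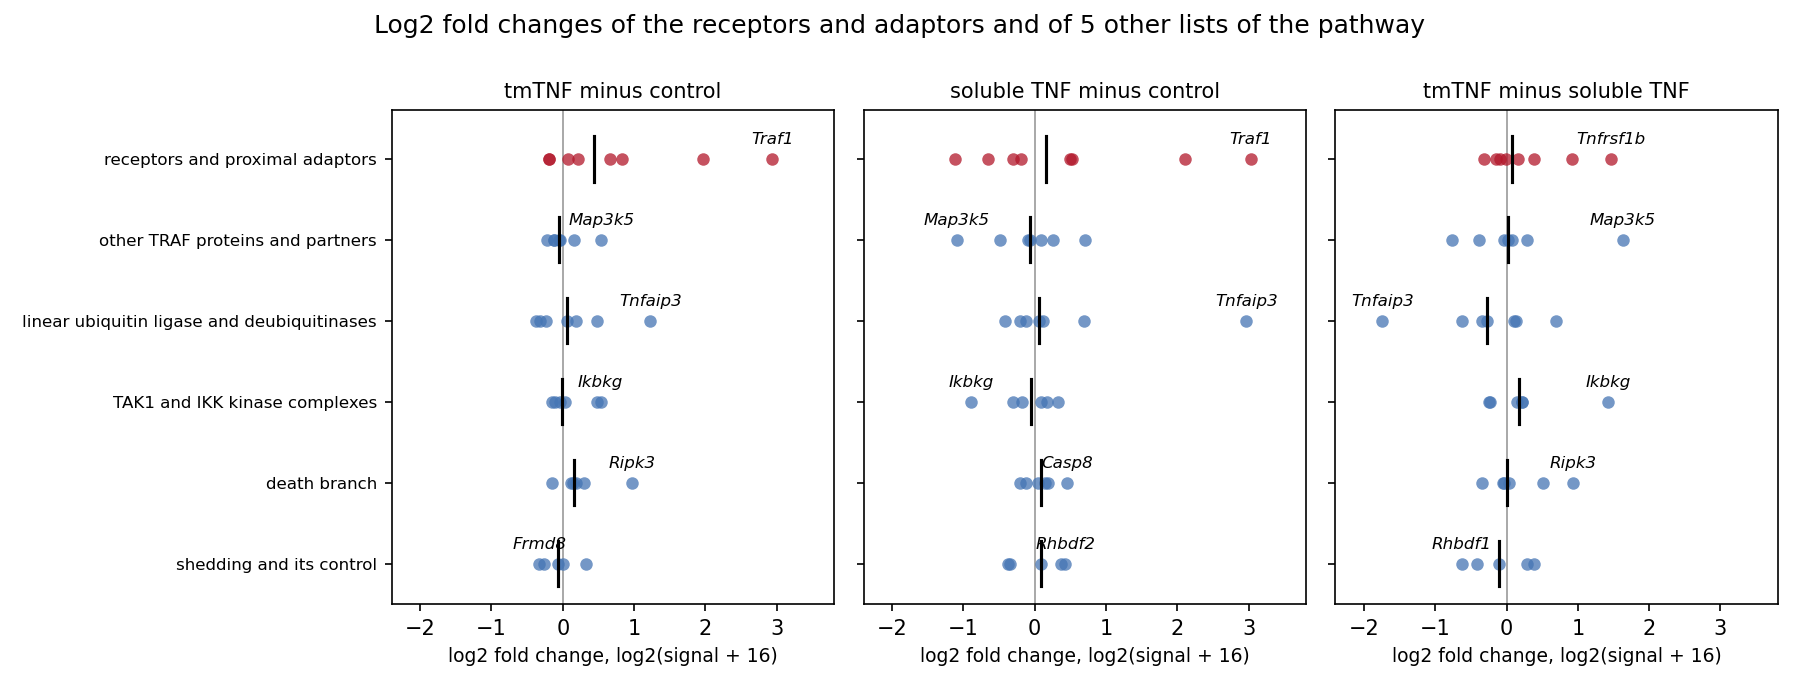
Log2 fold changes (x axis, log2(signal + 16) scale) of the 8 receptors and proximal adaptors (red) and of 5 other lists of the pathway (blue) in the 3 comparisons, 1 point per gene, with the median as a black bar and the gene of the largest absolute value named. Tnfaip3 is the single gene of the 5 lists near Traf1 for soluble TNF minus control, at 2.97.

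Likeness of profile was measured for the 3 genes with the largest fitted difference from control (Traf1, whose value depends on the pseudocount, Birc3 and Tnfrsf1a), as the root-mean-square difference between log2 profiles centred on their means over the 12 arrays. Nearest to Birc3, whose own SD over the arrays was 1.14, were Tnip1 (a partner of Tnfaip3) at 0.43, Relb (an NF-kappaB subunit) at 0.56 and Irf1 (an interferon regulatory factor) at 0.56, while Birc2 stood at 0.81, in place 32 of the genes tested. Nearest to Traf1, with an SD of 1.98, were Cd82 at 1.0, Glis3 at 1.06 and Tlr2 at 1.1. Nearest to Tnfrsf1a, with an SD of 0.63, were C2cd2l and Slc44a2, each at 0.21, and Uvrag at 0.25. The limma adjusted p-values of these 9 genes ran from 0.0674 to 0.965 for tmTNF minus control and from 0.0733 to 0.409 for soluble TNF minus control.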

How the data were processed

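The deposited values are linear MAS5 intensities, per the submitters' processing notes, which give no version or setting. They ran from 0.1 to 95672 over 45101 probe sets, and each array had a 2% trimmed mean of 1000. From about 5 micrograms of total RNA per array, per the labels, 12 arrays were made, 4 in each of 3 groups, and this number limits the precision. Detection calls were not used here.

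Arrays were brought to a 2% trimmed mean of 500, leaving out 64 control probe sets, and signals plus 16 were put on the log2 scale, which understates differences of dim genes. A probe set needed a signal of 100 on at least 4 arrays. In the platform annotation 34945 probe sets had 1 symbol, 932 had several and 9160 were not named. Of the gene identifiers, 34741 matched the RefSeq table of GRCm38.p6, and 0 symbols changed. Promoter windows are RefSeq's, of the same build.

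All groups entered 1 model in limma 3.58.1 (R 4.3.3), with lmFit and a trended eBayes step, which was tested on simulated data. Its two-sided p-values were adjusted by Benjamini and Hochberg's method over 10269 genes. Where all arrays of a group lay under 100, the fold is a bound, the mean log2 value of the brighter group against that of a signal of 100. It is not a strict bound where the brighter group also held arrays under 100, as for Traf1 with tmTNF. The named genes are the measured members of the list, per further list the gene with the largest absolute difference, the 3 nearest profiles of 3 genes, and Tnf. Rbck1 is named beside these because its tmTNF and control arrays did not overlap. The genes and lists were chosen with earlier results of these data known. Alternatives were other scalings, pseudocounts, filters, probe set merges, moderation and array weights, a fit of only the groups compared, and leaving out each array in turn or the 3 arrays lowest in endothelial markers.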

Additional observations from a re-analysis of the deposited data

Results flagged for a closer look

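In each of the 8 genes and 3 groups, 24 sets of 4 arrays in all, the highest and lowest array were compared with the rest by Dixon's test, in which chance singles out about 1 set in 20. It singled out 4. Traf2 had a signal of 307.1 on tmTNF replicate 1, far below the 721.2 to 848.9 of the other tmTNF arrays. Traf2 had a signal of 828.3 on soluble TNF replicate 1, above the 748.4 to 757.9 of the others of its group, a gap that is small in size. Birc2 had a signal of 1692 on soluble TNF replicate 3, against 860.3 to 958.0 on the other soluble TNF arrays. Tnfrsf1b had a signal of 107.0 on soluble TNF replicate 2, against 172.0 to 184.8 on the other soluble TNF arrays.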

How the results depend on the processing

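Of 669 values recomputed for 24 differences under 28 settings, 641 stayed on the same side, 24 changed sign and 4 passed the threshold anew. Many of the 641 could not have changed sign. The moderation settings, the fit of only the groups compared, the permutation test and the fit of each probe set on its own alter the test and not the log2 fold change. An array of the group not compared enters neither mean. The tally is thus no measure of how stable the differences are. The number of the 8 genes past an limma adjusted p of 0.05 was 0 in each comparison, and over fits without 1 array it ran from 0 to 1 for tmTNF minus control, with 1 (Traf1) without tmTNF replicate 1. For tmTNF minus soluble TNF it was 2 with array weights (Tnfrsf1a and Tnfrsf1b). It was 1 (Tnfrsf1a) without the 3 arrays low in endothelial markers, a fit that keeps only replicates 1 and 3 of tmTNF. Both of these lay above every soluble TNF array in the endothelial sum. Array weights also took the count over all genes in that comparison to 1176, against 125. The cause was not tested.

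No value that changed sign had passed the threshold. Without the 3 arrays, tmTNF minus control was 0.17 for Tnfrsf1a, 0.11 for Tradd and -0.01 for Traf2, and tmTNF minus soluble TNF was 0.3 for Tradd. Scaling to the same median moved the median of all genes to -0.118 from 0.026 for tmTNF minus control and to -0.149 from 0.079 for tmTNF minus soluble TNF. Under it Adam17 was -0.08 for tmTNF minus control and Birc2 -0.07 for tmTNF minus soluble TNF. With array weights Adam17 was -0.04 for tmTNF minus control, and Traf1 0.33 and Birc3 0.26 for tmTNF minus soluble TNF. A pseudocount of 64 made Traf1 0.2 for tmTNF minus soluble TNF. Over fits without 1 array, tmTNF minus control ran from -0.39 to 0.06 for Tnfrsf1a and from -0.11 to 0.26 for Adam17. Over the same fits tmTNF minus soluble TNF ran from -0.14 to 0.15 for Tradd, from -0.84 to 0.98 for Traf1, from -0.47 to 0.0 for Traf2, from -0.02 to 0.38 for Birc2 and from -0.46 to 0.14 for Birc3.

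A filter at 250 left out Traf1. No paired analysis was possible because the replicate numbers follow accession order and pair no samples. With signals under the floor of 100, as for Traf1 in controls, the difference is a bound where all arrays of the brighter group reached the floor, as with soluble TNF.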
